A study of Mus musculus with 9 samples.

Results

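Genes of the oxygen-sensing pathway of the mouse kidney were followed across whole-kidney RNA libraries from a study of the Y-box binding protein Ybx1 in podocytes. The 10 genes were picked by symbol, with earlier results of these data known: Epo, Hif1a, Epas1, Egln1, Egln3, Car9, Adm, Bnip3, Ankrd37 and Ndrg1. All 10 were present in both deposited count tables, among 52160 shared symbols, and all 10 passed the filter on low counts, which left 18067 genes to test. Poly(A) RNA from whole kidneys of mice of C57Bl/6N background, 16 weeks old, was sequenced as 9 libraries, 3 for each genotype. The controls were wild-type (WT) animals bought from a supplier. The second group, ΔPod, had Ybx1 deleted from podocytes. The third group, K2A, carried in podocytes a Ybx1 whose lysines needed for secretion were replaced (K299A and K302A, exon 7). The promoter that drives the podocyte specificity, the sex of the animals and their sharing of litters or days are not given in the labels. The labels name no treatment. Whether each library comes from its own animal is not stated, and the tests below rest on the spread among libraries, which may be technical.

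Cells sense oxygen through hypoxia-inducible factors (HIFs), pairs of an oxygen-labile alpha subunit and a stable beta subunit. With oxygen present, prolyl hydroxylases mark the alpha subunit, and the von Hippel-Lindau protein then has it destroyed. When oxygen falls, the alpha subunit persists and the pair binds the core motif ACGTG or GCGTG near its target genes. In the adult kidney, interstitial fibroblasts release erythropoietin, the hormone of red cell formation, under control of the alpha subunit encoded by Epas1. Much of this control acts on protein stability, which RNA counts do not measure.

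The promoters of 3 target genes are shown because Car9 was the member called against WT and because Bnip3 and Ankrd37 moved together across the libraries. Each sequence is the 250 bases before the transcription start in RefSeq on GRCm38.p6, read 5′ to 3′ on the strand of the gene. The positions are chr4:43506776-43507025 on the plus strand, chr7:138909507-138909756 on the minus strand and chr8:45999851-46000100 on the minus strand. Capitals mark ACGTG or GCGTG on either strand, with overlapping matches joined.
Car9: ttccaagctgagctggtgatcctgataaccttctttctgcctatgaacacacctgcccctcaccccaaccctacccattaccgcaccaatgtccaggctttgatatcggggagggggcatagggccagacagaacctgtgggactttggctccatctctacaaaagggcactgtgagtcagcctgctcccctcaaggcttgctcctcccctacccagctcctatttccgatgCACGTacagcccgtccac
Bnip3: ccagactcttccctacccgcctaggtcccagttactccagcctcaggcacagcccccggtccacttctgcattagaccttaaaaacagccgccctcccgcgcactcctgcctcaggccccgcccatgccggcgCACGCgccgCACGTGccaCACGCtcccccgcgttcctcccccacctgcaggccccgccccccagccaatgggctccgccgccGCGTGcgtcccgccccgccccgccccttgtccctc
Ankrd37: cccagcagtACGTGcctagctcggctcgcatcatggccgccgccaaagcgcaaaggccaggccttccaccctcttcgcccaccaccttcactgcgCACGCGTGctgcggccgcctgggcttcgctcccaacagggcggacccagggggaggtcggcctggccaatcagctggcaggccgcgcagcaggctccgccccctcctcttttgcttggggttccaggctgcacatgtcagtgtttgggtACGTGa
Car9 held 1 match, ACGTG at position -18 from the start, on the strand opposite to the gene. Bnip3 held 5 matches, 2 of ACGTG and 3 of GCGTG, between -117 and -35. Its 2 matches of ACGTG, at -108 and -107, were 1 stretch, CACGTG, counted on each strand. Ankrd37 held 4 matches, 2 of each form, and its nearest one was at -6. RefSeq windows of 300 bases, 250 before and 50 after the start, were found for 8 members, and all 8 held at least 1 match. Of all 32851 mouse promoter windows of that length, 43.8% held at least 1 match, 19.6% held ACGTG and 32.4% held GCGTG. These matches are letters in a window and do not show that a factor was bound there.

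The libraries held 30777142 to 46882253 counts. Libraries of the same group differed in how counts depended on the length of the transcript. Long transcripts were counted relatively more in WT 1, WT 3, ΔPod 3 and K2A 3, and short ones in the remaining 5 (WT 2, ΔPod 1, ΔPod 2, K2A 1 and K2A 2). Transcripts that differ between male and female mouse kidney also followed the groups, since the 13 male-biased genes on the list summed to 8435 to 9833 CPM (counts scaled to library size with TMM factors) for WT, 481 to 566 for ΔPod and 405 to 544 for K2A. Xist, which is transcribed from the inactive X chromosome of females, was at 0 in all 3 WT libraries and at 17.0 CPM or more in every mutant library. Ddx3y, a Y-linked gene, was at 32.7 to 40.6 CPM in WT and at 0.248 CPM or less in every mutant library. Genotype and sex therefore cannot be told apart in any comparison with WT below. Markers of the labelled tissue were present, since 10 of 10 proximal tubule genes and 8 of 8 podocyte genes passed the filter. White fat markers summed to 11607 CPM in K2A 3 and to 707 to 2608 CPM in the other 8 libraries. The sum did not follow Adipoq, a marker of white fat, at 0 in K2A 3 and 58.5 CPM in K2A 2. Adipoq was at 22.2 CPM in K2A 1, at 14.97 CPM in ΔPod 1 and at 0 to 0.703 CPM in the remaining libraries. The sum therefore does not show which libraries held fat, and the part of fat in the results was not tested. Ybx1 itself averaged 1320 ± 230 CPM for WT, 884 ± 281 for ΔPod and 928 ± 326 for K2A (SD, n = 3) and was not called by the edgeR quasi-likelihood test in either genotype (adjusted p = 0.465 and 0.725). Nphs1, a slit diaphragm gene of podocytes, was not called either (adjusted p = 0.931 and 0.994). In whole kidney, fewer cells of a type and less RNA per cell cannot be told apart.

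Deletion of Ybx1 from podocytes was compared with WT to ask what the loss does to kidney transcripts, and K2A with WT to ask the same of the loss of its secretion. Car9, which encodes a carbonic anhydrase on the cell surface, fell 5.79-fold in ΔPod and was the only 1 of the 10 genes called there. In K2A it lay 3.04-fold below WT and did not pass. Ndrg1 was lower in all 6 mutant libraries than in all 3 WT libraries without passing the test in either genotype. The other 8 genes did not pass and overlapped WT in both genotypes. Over all tested genes 0.985% were called in ΔPod (0.587% as lower) and 0.847% in K2A (0.526% as lower), by edgeR with Benjamini-Hochberg adjustment at a false discovery rate of 0.05. Of the members, 1 of 10 was called in ΔPod and 0 of 10 in K2A, where DESeq2 called 2, Car9 and Ndrg1. DESeq2 called 1 of 10 in ΔPod, Car9, and its share over all genes was 5.57% in ΔPod and 5.07% in K2A. An unadjusted p below 0.05 was reached by 2 of 10 members in each genotype, against 13.8% of all tested genes in ΔPod and 10.6% in K2A. The median log2 fold change of the 10 was -0.20 in ΔPod, against 0.08 over all tested genes, and -0.02 in K2A, against 0.09.

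**Figure D1:**
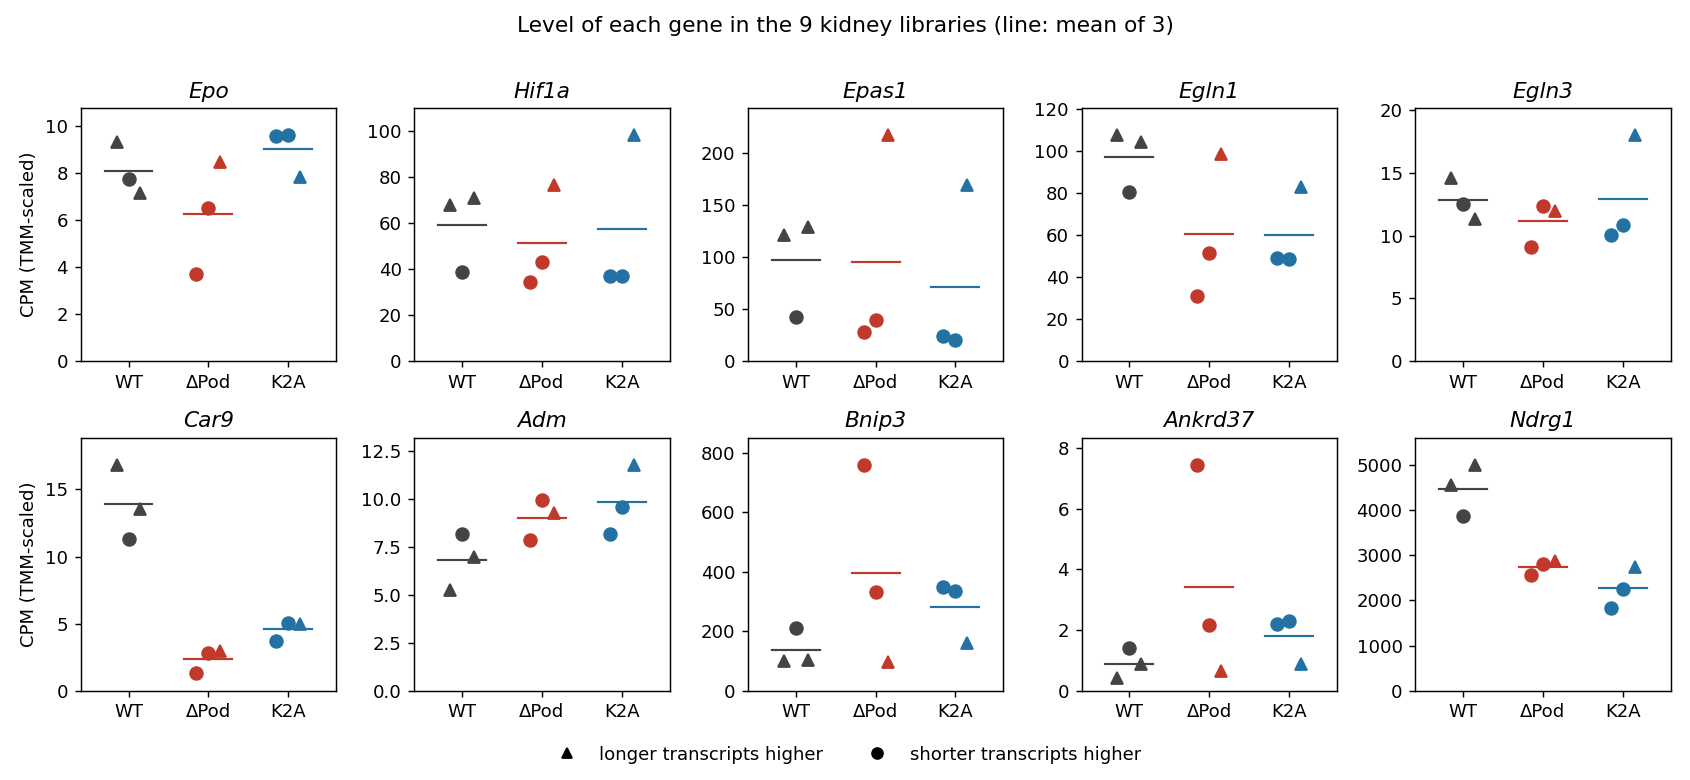
CPM of each of the 10 genes (vertical axis, from 0) in the 3 libraries of WT, ΔPod and K2A, with the group mean as a line; triangles are libraries in which longer transcripts were higher and circles those in which shorter ones were. Car9 is at 11.3 to 16.8 CPM in WT and at 1.34 to 5.04 CPM in all mutant libraries, whereas Hif1a, Epas1, Egln1, Bnip3 and Ankrd37 separate triangles from circles, Egln1 narrowly.

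**Figure D2:**
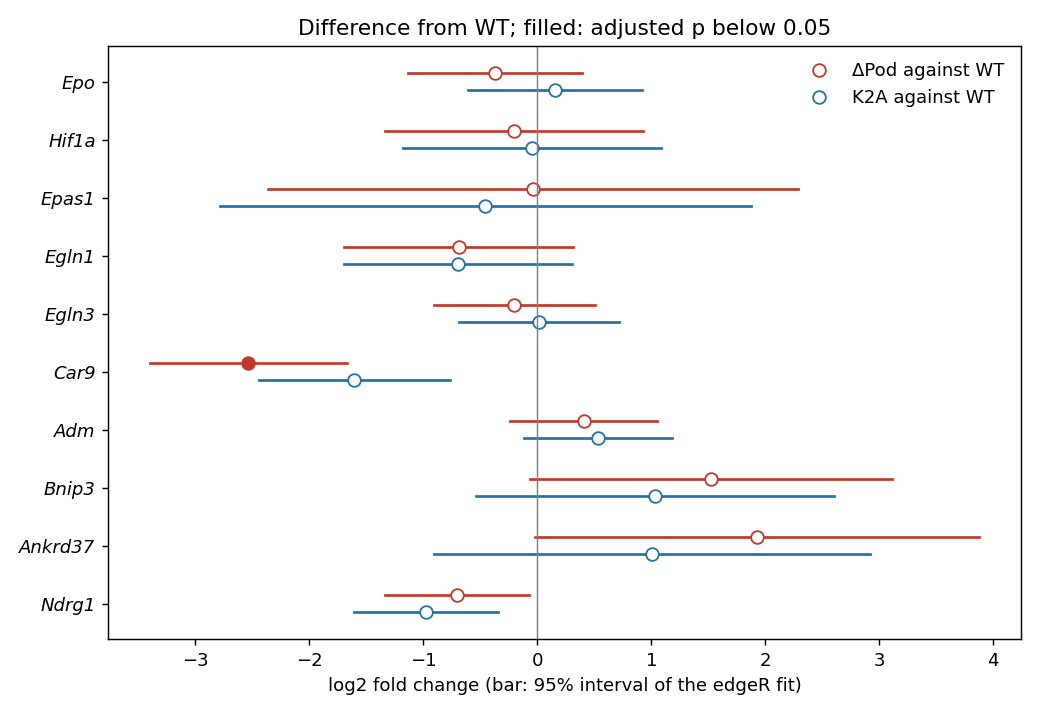
The log2 fold change of each gene against WT in ΔPod (red) and K2A (blue), with its 95% interval from the edgeR fit of all 9 libraries; a filled point passed at an adjusted p below 0.05. Car9 in ΔPod, at -2.53, is the only filled point.

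Epo, the hormone gene (chromosome 5, 137483020 to 137533242 in mm10, GENCODE vM21), was measured at 9.34, 7.73 and 7.17 CPM in WT 1 to WT 3. The ΔPod libraries held 3.73, 6.52 and 8.48 CPM, and the K2A libraries 9.58, 9.60 and 7.84 CPM. ΔPod 1 was the lowest of the 9 libraries, and the groups overlapped. The log2 fold change was -0.37 in ΔPod (95% interval -1.14 to 0.40, edgeR adjusted p = 0.580) and 0.16 in K2A (-0.61 to 0.92, adjusted p = 0.880). Between the genotypes K2A lay 0.53 above ΔPod on the log2 scale (-0.24 to 1.29, adjusted p = 1).

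The Epo row followed a neighbouring gene closely. In GENCODE vM21, 1 Epo transcript starts far upstream with an exon of 104 bases (chromosome 5, 137533139 to 137533242), and all 104 bases lie in exons of Gnb2, a G protein subunit gene on the same strand. The other 5 Epo exons share no base with Gnb2. The Epo count was 4.39, 3.91 and 3.89% of the Gnb2 count in the WT libraries. It was 3.23, 4.11 and 4.55% of it in the ΔPod libraries and 4.57, 4.62 and 4.42% in the K2A libraries. Over the 9 libraries the CPM of Epo varied 2.58-fold, whereas its ratio to Gnb2 varied 1.43-fold. Mir6418, a microRNA row whose span lies inside Gnb2, was among the 5 genes most like Epo. Likeness was the root-mean-square difference of log2 CPM, centred on each gene's mean, over the 9 libraries, and 11816 genes were searched. Vasp, an actin regulator, was the nearest at 0.057, Mir6418 was next at 0.072, and Cenpt, Fam110a and Ino80b followed at 0.10 to 0.11. Gnb2 itself was at 0.15 and ranked 25 of 11816, where the spread of Epo about its own mean was 0.40. How many reads of the Epo row came from Gnb2 transcripts was not tested, and the annotation that the authors counted on is not given in the sources used here. The values above are therefore those of the row as counted.

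The cells and partners around Epo were measured as well. Of 12 listed markers of interstitial fibroblasts and pericytes 11 were tested. Their summed level was 402 to 455 CPM for WT, 316 to 385 for ΔPod and 273 to 326 for K2A. Without Nt5e, a choice made after its values were seen, the sum of the other 10 was 156 to 262 CPM for WT, 232 to 314 for ΔPod and 225 to 246 for K2A, and the groups overlapped. Nt5e, the ecto-nucleotidase CD73 that also marks proximal tubule cells, was the 1 gene of these called, in K2A. For Nt5e the WT libraries averaged 209 ± 32.6 CPM and K2A libraries 68.0 ± 17.0 CPM (SD, n = 3), a log2 fold change of -1.62 with an edgeR adjusted p of 0.0460. In ΔPod it was at 67.8 to 84.4 CPM, also below every WT library, with a log2 fold change of -1.42 and an adjusted p of 0.0672. Epor, the erythropoietin receptor gene, stood at 2.74, 2.23 and 1.68 CPM in WT, at 3.44, 2.95 and 2.18 CPM in ΔPod and at 9.05, 6.97 and 3.58 CPM in K2A. Every K2A library lay above every WT library for Epor, as for 11% of all tested genes. The difference of 1.56 on the log2 scale missed the threshold (edgeR adjusted p = 0.167). Red cell markers, of which 7 of 9 were tested, summed to 221 to 884 CPM for WT, 163 to 1017 for ΔPod and 407 to 610 for K2A, with overlapping groups.

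**Figure D3:**
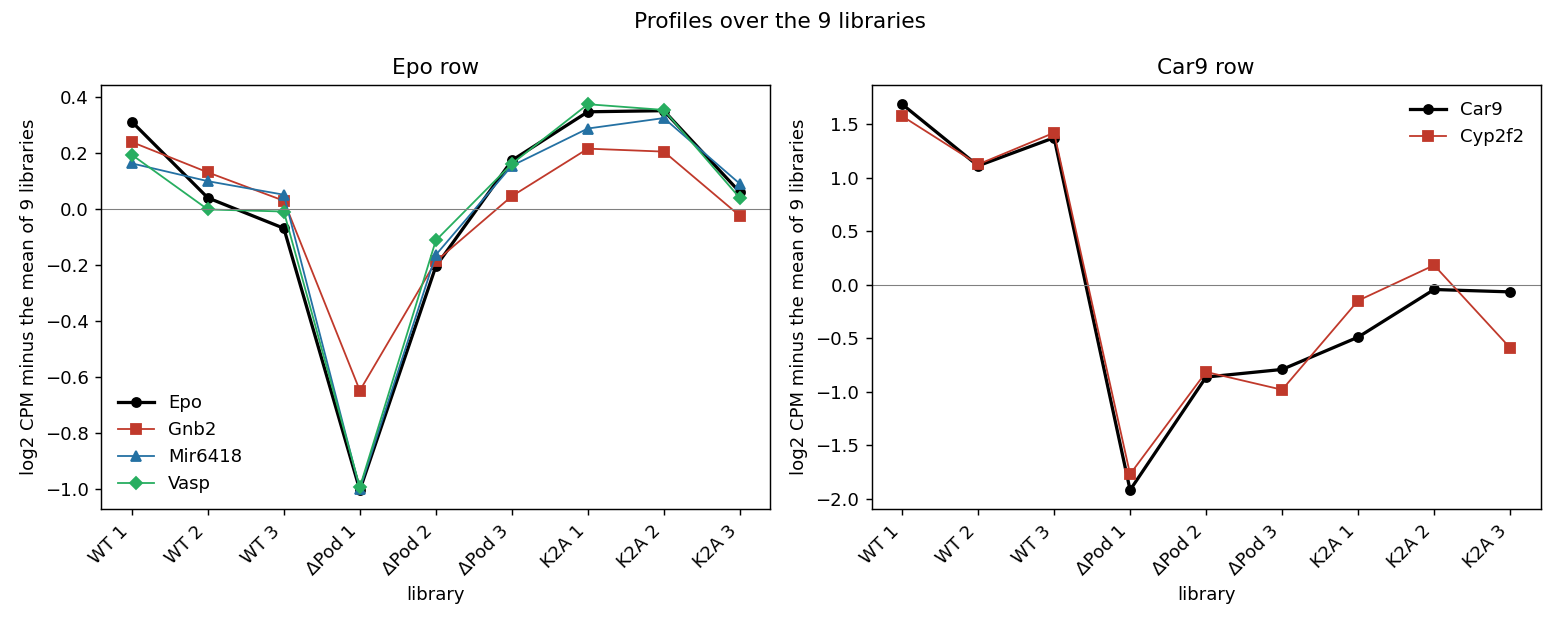
Centred log2 CPM (vertical axis) over the 9 libraries (horizontal axis) for Epo with Gnb2, Mir6418 and Vasp on the left, and for Car9 with Cyp2f2 on the right. The 4 lines on the left share their dip in ΔPod 1, and the lines on the right stay together with a root-mean-square difference of 0.24.

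The alpha subunits of HIF were not called. Hif1a (chromosome 12, 73901375 to 73947530), the broadly expressed subunit, was at 68.1, 38.8 and 71.2 CPM in WT. It was at 34.6, 43.1 and 76.8 CPM in ΔPod and at 37.0, 37.2 and 98.3 CPM in K2A. Epas1 (chromosome 17, 86753700 to 86833410), which encodes HIF-2 alpha and is prominent in endothelium and interstitium, was at 121, 42.9 and 129 CPM in WT. It was at 28.0, 40.0 and 217 CPM in ΔPod and at 23.7, 20.2 and 170 CPM in K2A. In every group the libraries with more counts from long transcripts were the high ones for both subunits. The 95% intervals of the log2 fold changes were accordingly wide for Epas1, at -2.37 to 2.28 in ΔPod and -2.79 to 1.87 in K2A. Per length of exon, Epas1 exceeded Hif1a in all 4 libraries with more long transcripts, by 1.82 to 2.98 times. In the other 5 libraries the ratio ran from 0.573 to 1.17. Summed endothelial markers moved alongside, at 594 to 679 CPM in the former libraries and at 181 to 416 CPM in the latter. They were not alone, since podocyte markers were at 520 to 855 CPM against 136 to 268 CPM. Thick limb and distal tubule markers were at 6801 to 7680 CPM against 2906 to 4707 CPM. Macrophage and collecting duct markers overlapped instead. The part of any of these markers in the Epas1 values was not tested.

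The prolyl hydroxylase genes were not called either. Egln1 (chromosome 8, 124908587 to 124949324) encodes PHD2, the main oxygen sensor for HIF. It was at 107, 80.2 and 104 CPM in WT, at 31.1, 51.2 and 98.3 CPM in ΔPod and at 48.8, 48.4 and 82.8 CPM in K2A. The highest mutant libraries, ΔPod 3 and K2A 3, reached into the WT range. Its log2 fold change was -0.69 in ΔPod (95% interval -1.69 to 0.31) and -0.70 in K2A (-1.70 to 0.30), and neither passed (edgeR adjusted p = 0.456 and 0.674). Egln3 (chromosome 12, 54178981 to 54203860) encodes PHD3, which is itself induced by HIF. It was at 14.6, 12.5 and 11.3 CPM in WT, at 9.11, 12.4 and 11.97 CPM in ΔPod and at 10.04, 10.8 and 18.0 CPM in K2A. The groups overlapped throughout, and the intervals were -0.91 to 0.50 in ΔPod and -0.69 to 0.72 in K2A on the log2 scale. Of 15 other genes of the HIF machinery, such as the partner subunits and the destruction complex, 0 of 15 were called in either genotype by edgeR, also at an unadjusted p below 0.05, and 0 by DESeq2. Vhl, the von Hippel-Lindau gene, was at 25.5, 47.1 and 28.5 CPM in WT, at 78.3, 49.2 and 17.0 CPM in ΔPod and at 67.8, 71.8 and 21.0 CPM in K2A. Eloc, encoding elongin C of the same complex, had a log2 fold change of 1.29 in ΔPod (adjusted p = 0.400) and 0.41 in K2A. Os9, encoding a lectin that binds HIF-1 alpha and the hydroxylases, had -0.97 in both.

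Car9 (chromosome 4, 43506966 to 43513729) is one of the most oxygen-dependent HIF-1 targets, and its product hydrates carbon dioxide outside the cell. Its counts were 607, 394 and 548 in the WT libraries, 37, 121 and 148 in ΔPod and 119, 170 and 205 in K2A. In CPM these were 16.8, 11.3 and 13.5 in WT, 1.34, 2.84 and 2.98 in ΔPod and 3.69, 5.04 and 4.96 in K2A. The 3 groups did not overlap, with WT highest and ΔPod lowest. The WT mean was 13.9 ± 2.79 CPM and the ΔPod mean 2.39 ± 0.910 CPM (SD, n = 3), which gave a log2 fold change of -2.53 (SE 0.38, edgeR adjusted p = 0.0224). K2A held 4.56 ± 0.758 CPM (log2 fold change -1.60, SE 0.37, adjusted p = 0.108). All 6 mutant libraries lay below all 3 WT libraries, as they did for 5.86% of all tested genes. Between the genotypes the 3 K2A libraries lay above the 3 ΔPod libraries by 0.93 on the log2 scale (95% interval 0.10 to 1.76, adjusted p = 1), and Car9 was the only 1 of the 10 members that did not overlap. Absence of overlap was seen there for 5.11% of all tested genes, 3.51% with K2A higher and 1.61% with K2A lower. Across that comparison edgeR called 0 of 18067 genes, 364 had an unadjusted p below 0.05 (2.01%, against 1 of 10 members), and DESeq2 called 19 (0.108%).

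The Car9 difference was present within each length class. Among libraries with more counts from long transcripts, ΔPod 3 was 5.09-fold below the mean of WT 1 and WT 3, and K2A 3 was 3.06-fold below it. Among the others, the mean of ΔPod 1 and ΔPod 2 was 5.40-fold below WT 2, and that of K2A 1 and K2A 2 was 2.59-fold below it. With the length class as a term, Car9 passed in both genotypes (edgeR adjusted p = 0.00338 in ΔPod and 0.0311 in K2A). A fit of the libraries with more counts from short transcripts alone held 1 WT library. It gave Car9 log2 fold changes of -2.46 in ΔPod and -1.41 in K2A. The ΔPod call was lost without WT 1, WT 2, WT 3, ΔPod 2, K2A 1 or K2A 2 (edgeR adjusted p = 0.118, 0.0774, 0.104, 0.101, 0.0539 and 0.0565). It was also lost with only the 6 libraries compared (edgeR adjusted p = 0.0763). The log2 fold change of Car9 in ΔPod stayed between -2.76 and -2.26 in every fit that left out a library. Over all 18 alternatives its adjusted p lay between 2.55e-09 and 0.204 in ΔPod and between 0.000422 and 0.442 in K2A. An antisense gene, Gm12454, shares 214 bases of Car9 exons. Gm12454 was at 2.02 to 2.46 CPM for WT, 0.725 to 1.69 for ΔPod and 0.702 to 1.92 for K2A, and reads of the partners may not be separable, since the strand setting of the counting is not stated.

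Among the genes most like Car9 over the 9 libraries, by the same measure, were Cyp2f2, a cytochrome P450, at 0.24, Ephx2, the soluble epoxide hydrolase, at 0.34, Selenbp2, a selenium-binding protein, at 0.34, and Fbxo40 at 0.35. The spread of Car9 about its own mean was 1.117. None of these is on the HIF lists used here. Cyp2f2 fell in ΔPod by 2.59 on the log2 scale (edgeR adjusted p = 0.0223) and was at -1.57 in K2A (adjusted p = 0.122). The male-biased genes moved the same way as Car9, with 12 of 13 called lower in ΔPod and 11 of 13 in K2A, and 4 of 6 female-biased genes were called higher in each genotype. Their part in the Car9 difference cannot be told apart from the genotype. Proximal tubule markers, summed, were at 39015 to 49211 CPM for WT, 17888 to 22800.4 for ΔPod and 15527 to 21731 for K2A. Such a sum leans on the most abundant markers, so it does not show a loss of tubule cells. How it divided among these 10 markers, and whether any of them differs between the sexes, was not tested. Taken singly, 0 of 10 were called in either genotype, against 0.985% of all tested genes in ΔPod and 0.847% in K2A. Their log2 fold changes ran from -2.29 to 0.63 in ΔPod (median -0.60) and from -2.13 to 0.11 in K2A (median -0.80). The part of these markers in the Car9 difference was not tested.

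Ndrg1 (chromosome 15, 66929318 to 66969640), a stress-responsive gene induced by hypoxia in many cell types, had the highest level per exon length of the 10. It was at 4555, 3862 and 5003 CPM in WT, at 2557, 2801 and 2870.05 CPM in ΔPod and at 1827, 2247 and 2733 CPM in K2A. The highest mutant value lay below the lowest WT value. Absence of overlap with WT in the lower direction was seen for 9.47% of all tested genes in ΔPod and 9.18% in K2A, and for 2 of the 10 members, Car9 and Ndrg1, in each. In the higher direction it was seen for 0 of 10 members in either genotype, against 8.73% of all tested genes in ΔPod and 11% in K2A, and the totals over both directions were 18.2% and 20.1%. The log2 fold change of Ndrg1 was -0.71 in ΔPod (95% interval -1.34 to -0.08, edgeR adjusted p = 0.334) and -0.98 in K2A (-1.61 to -0.35, adjusted p = 0.204). DESeq2 called it in K2A (adjusted p = 0.0019) and not in ΔPod (adjusted p = 0.0748). Over the alternatives its adjusted p lay between 0.0306 and 0.786 in ΔPod and between 0.0019 and 0.671 in K2A. Within the length classes its mean lay below WT by 1.44 to 1.90 times in each genotype.

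Adm (chromosome 7, 110627661 to 110629820) encodes adrenomedullin, a peptide that widens vessels. It was at 5.27, 8.19 and 6.97 CPM in WT, at 7.89, 9.96 and 9.27 CPM in ΔPod and at 8.18, 9.57 and 11.8 CPM in K2A. The lowest mutant libraries reached just below the highest WT library. The log2 fold change was 0.41 in ΔPod (95% interval -0.24 to 1.05) and 0.53 in K2A (-0.11 to 1.18), and neither passed (edgeR adjusted p = 0.483 and 0.582). Immediate early genes, which respond within minutes to stress or handling of tissue, summed to 948 CPM in ΔPod 3 against 114 to 271 CPM in the other 8 libraries. Adm in ΔPod 3 lay between its values in ΔPod 1 and ΔPod 2.

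Bnip3 (chromosome 7, 138890836 to 138909519) encodes a mitochondrial protein that promotes the removal of mitochondria. It was at 99.7, 210 and 104 CPM in WT, at 759, 331 and 96.2 CPM in ΔPod and at 348, 335 and 160 CPM in K2A. Ankrd37 (chromosome 8, 45996902 to 46005707), an ankyrin repeat gene induced by HIF-1, was at 0.416, 1.40 and 0.865 CPM in WT, at 7.45, 2.18 and 0.665 CPM in ΔPod and at 2.20, 2.31 and 0.895 CPM in K2A. ΔPod 1 was the highest library for both genes, and the 5 libraries with more counts from short transcripts all lay above the other 4. Log2 fold changes in ΔPod were 1.52 for Bnip3 (95% interval -0.07 to 3.11, edgeR adjusted p = 0.376) and 1.93 for Ankrd37 (-0.02 to 3.87, adjusted p = 0.364). In K2A they were 1.03 and 1.01, with adjusted p = 0.693 and 0.750. In ΔPod 3, the library with more counts from long transcripts, both genes were close to the mean of WT 1 and WT 3, at log2 ratios of -0.08 and 0.05. K2A 3 lay above that mean, at 0.66 for Bnip3 and 0.48 for Ankrd37. Among the libraries with more counts from short transcripts, the log2 ratios to WT 2 were 1.38 and 1.78 in ΔPod and 0.70 and 0.69 in K2A. These libraries were not matched, since the slope of log2 CPM on log2 exon length was -0.058 in WT 2. It was -0.38 and -0.14 in ΔPod 1 and ΔPod 2, and -0.21 and -0.22 in K2A 1 and K2A 2. Without ΔPod 1 the fold changes in ΔPod dropped to 0.63 and 0.66. With the length slope as a covariate, added after seeing the data, they were 0.46 and 0.60 in ΔPod and 0.48 and 0.26 in K2A. Bnip3l, the paralog of Bnip3, went with it, and the ratio of Bnip3 to Bnip3l CPM stayed between 1.22 and 2.10 while Bnip3 itself varied between 96.2 and 759 CPM. Ankrd37 shares 57 bases of exon with Ufsp2 and 349 with Lrp2bp, both on the other strand, so part of its low counts may be shared.

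The map of libraries ordered by length slope shows which genes followed that division. Bnip3 and Ankrd37 were higher in all libraries with more counts from short transcripts, as were 26.5% of all tested genes. Hif1a, Epas1 and Egln1 were lower in all of these, as were 26.6% of all tested genes. Epo, Egln3, Car9, Adm and Ndrg1 overlapped between the classes. Exon lengths were 5896 bases for Hif1a, 5590.0 for Epas1 and 3594 for Egln1, and 2265 for Bnip3 and 1539 for Ankrd37. The overlapping genes spanned the whole range of lengths, from Epo with 855 bases and Adm with 1619 through Car9 with 2304 and Egln3 with 2662 to Ndrg1 with 6596.

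**Figure D4:**
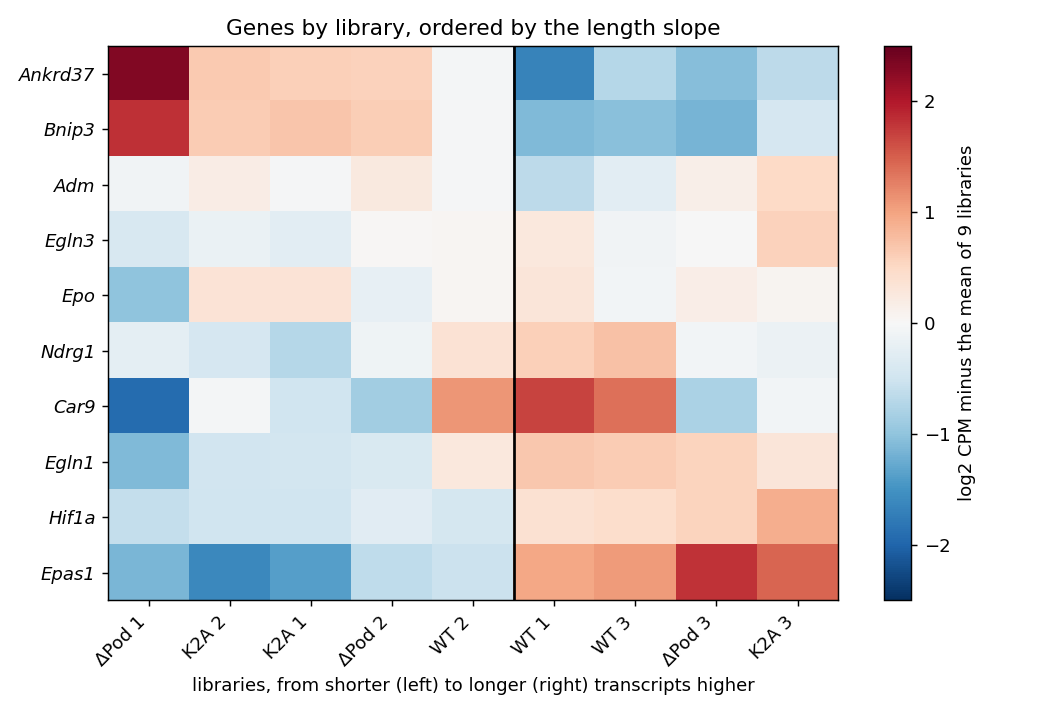
Centred log2 CPM (colour, red above and blue below the mean of 9 libraries) of the 10 genes (rows) in the libraries (columns), ordered from shorter to longer transcripts being higher; the line divides the 5 and 4 libraries of the classes. Ankrd37 and Bnip3 are red in the mutant libraries left of the line, close to the mean in WT 2 and blue to its right, Egln1, Hif1a and Epas1 run mostly the other way, and Car9 is high in the WT libraries on both sides.

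Per kilobase of exon, WT levels ran from Ndrg1 at 678 ± 87.2 CPM per kb through Bnip3 at 60.8 ± 27.6, Egln1 at 27.1 ± 4.13, Epas1 at 17.5 ± 8.52, Hif1a at 10.1 ± 3.03 and Epo at 9.45 ± 1.32 to Car9 at 6.03 ± 1.21, Egln3 at 4.82 ± 0.615, Adm at 4.21 ± 0.906 and Ankrd37 at 0.581 ± 0.321 CPM per kb (mean ± SD, n = 3). Neighbours in this order overlapped in their WT libraries from Egln1 to Epo and from Car9 to Adm. The place of Epo is that of its row as counted, since its share of reads from Gnb2 transcripts was not tested. In ΔPod, Car9 was last, at 1.04 ± 0.395 CPM per kb, and its libraries overlapped those of Ankrd37. In K2A it was next to last, at 1.98 ± 0.329 CPM per kb, above Ankrd37 without overlap.

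Other HIF targets gave no call. Of 77 tested pathway genes outside the 10, edgeR called 0 in ΔPod, where 9 had an unadjusted p below 0.05, and 0 in K2A, where 11 did, against 13.8% and 10.6% of all tested genes. DESeq2 called 6 of the 77 in ΔPod (Tpi1, Ldha, Apln, Hmox1, Stc2 and Cxcr4) and 3 in K2A (Tpi1, Ldha and Epor), against 5.57% and 5.07% of all genes, and those not named by size of change are listed after their values were seen. Their median log2 fold change was -0.10 in ΔPod and 0.11 in K2A, against 0.08 and 0.09 over all tested genes. Among the 21 glycolysis genes 16 had negative values in ΔPod and 13 in K2A, with medians of -0.58 and -0.23. Over all 18067 tested genes 8418 were negative in ΔPod and 8026 in K2A. Summed, the glycolysis genes were at 4786 to 6208 CPM for WT, 2227 to 4339 for ΔPod and 3580.2 to 5034 for K2A. Ldha, which makes lactate from pyruvate, was at 958, 799 and 798 CPM in WT. It was at 371, 444 and 389 CPM in ΔPod and at 510, 534 and 489 CPM in K2A. All 6 mutant libraries were below WT, with log2 fold changes of -1.09 in ΔPod (adjusted p = 0.0884) and -0.74 in K2A (adjusted p = 0.261). Ldha was called in ΔPod by DESeq2 and by edgeR with the length class or the length slope, and in K2A by DESeq2 and with the slope. Gapdh was at -1.03 in ΔPod, with ΔPod 1 at 120 and ΔPod 3 at 559 CPM. Pfkfb3, which sets the pace of glycolysis, was at 0.98 in K2A, where K2A 3 held 33.4 CPM and K2A 1 8.46 CPM.

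Of 30 further HIF targets 19 had positive values in ΔPod and 21 in K2A, against 9649 and 10041 of all 18067 tested genes. Hmox1, the heme oxygenase gene, was at 43.0, 39.6 and 52.8 CPM in WT, at 8.17, 11.8 and 20.8 CPM in ΔPod and at 16.5, 23.6 and 27.7 CPM in K2A. The mutant libraries lay below WT throughout, at log2 fold changes of -1.73 (edgeR adjusted p = 0.100) and -0.99 (adjusted p = 0.381). Hmox1 was called in ΔPod by DESeq2 and by edgeR with the replicate block, the length class, the length slope or without ΔPod 3, and in K2A with the slope. Tfrc, the transferrin receptor that brings iron into cells, was at 120, 85.0 and 105 CPM in WT, at 66.8, 44.1 and 72.7 CPM in ΔPod and at 19.8, 15.9 and 65.4 CPM in K2A. It too did not overlap WT, with log2 fold changes of -0.76 in ΔPod (edgeR adjusted p = 0.487) and -1.61 in K2A (adjusted p = 0.286). Such absence of overlap in the lower direction was seen for 9.47% of all tested genes in ΔPod and 9.18% in K2A. Tfrc was called in K2A by edgeR with the length class, the length slope or without K2A 3. Fam162a, a mitochondrial HIF-1 target, was at 1.68 in ΔPod (adjusted p = 0.379), and like Bnip3 it was highest in ΔPod 1, at 350 CPM, and near WT in ΔPod 3, at 41.4 CPM. Ppp1r3c, a glycogen-targeting phosphatase subunit, was at 1.64 in K2A (adjusted p = 0.392). Among regulators and signalling partners of Epo, Hnf4a, a transcription factor of the tubule, was at -0.77 and Stat5a, a transducer of the receptor, at -0.65 in ΔPod, and Socs3, an inhibitor of the same pathway, was at 0.55 in K2A, none of which passed.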

How the data were processed

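The deposited values were raw read counts for each gene symbol, with WT libraries in both tables and 1 mutant group in each. The submitters' processing notes name Trim Galore 0.6.3, STAR 2.7.3a, featureCounts 2.0.1, DESeq2 1.30.0 and the build mm10. The strand setting, annotation and handling of reads with several matches are not given in the sources used here. The tables were joined on 52163 shared symbols, less 3 whose WT counts differed.

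The analysis used edgeR 4.0.16 under R 4.3.3, with filterByExpr, TMM factors and the quasi-likelihood test in 1 fit of all 9 libraries with a group term, with Benjamini-Hochberg adjustment over 18067 genes. CPM used TMM-scaled library sizes, and intervals cover the fit's error. Total counts per library, 30777142 to 46882253, set the counting precision. DESeq2 1.42.0 and the other alternatives are given in the closing section. The steps were tested on simulated data, in which many changed genes were missed with 3 libraries a group, so a p that misses the threshold does not show that levels were alike. Gene coordinates and exon lengths came from GENCODE vM21 on mm10 (97.4% of tested symbols), and promoters from RefSeq on GRCm38.p6.

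The members and gene lists were chosen with earlier results of these data known. Other pathway genes were named by size of change (up to 2 per list and genotype, with mean log2 CPM of at least 1), likeness partners as the 5 nearest genes, and label and sex genes as checks. Gnb2, Bnip3l and the antisense and overlapping genes were chosen after their values were seen. A few further genes under this rule are not reported here.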

Additional observations from a re-analysis of the deposited data

How the results depend on the processing

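Of 540 fold changes of the 10 genes under 18 alternatives, 478 kept their direction and their side of the threshold, 8 lost the call, 7 gained one and 47 changed sign, none of the last with a call. All 8 losses were of Car9 in ΔPod, the only member result called in the main fit, which kept its call in 10 of 18 alternatives. Members called in ΔPod numbered 1, and 0 with only the 6 libraries compared or with only the libraries in which shorter transcripts were higher, 2 with the length slope as a covariate (added after seeing the data) and 0 to 1 without 1 library. In K2A they numbered 0, and 2 with DESeq2, 1 with the length class as a term, 2 with the length slope and 0 to 1 without 1 library.

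All genes called in ΔPod numbered 178, and 998 with DESeq2, 54 with only the 6 libraries, 270 with the replicate block, 715 with the length class, 46 with the short-transcript libraries only, 2548 with the length slope and 23 to 411 without 1 library. In K2A they numbered 153, and 909, 739, 27 and 2858 with DESeq2, the class, the short-transcript libraries and the slope, 232 with the replicate block and 3 to 291 without 1 library. Between the genotypes they numbered 0, and 19 with DESeq2, 32 with the slope and 0 to 2 without 1 library. Other pathway genes called in ΔPod were 0, and 6 with DESeq2, 1 with the replicate block, 3 with the class, 13 with the slope and 0 to 2 without 1 library, and in K2A 0, and 3, 1 and 10 with DESeq2, the class and the slope and 0 to 1 without 1 library. The cause was not tested.

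Signs changed for uncalled values, most but not all of them near 0. Against WT, Hif1a in ΔPod came to 0.12 with the class and 0.26 with the slope (-0.65 to 0.0056 without 1 library), and Epas1 to 0.056 with library size alone, 0.27 with the class and 0.64 with the slope (-1.56 to 0.38). In K2A, Egln3 came to -0.033 with RLE factors, -0.032 with DESeq2, -0.029 without a filter, -0.029 with the replicate block and -0.30 in the short-transcript libraries (-0.34 to 0.16), and Hif1a to 0.033 with library size alone, 0.21 with the class and 0.24 with the slope (-0.73 to 0.18). Between the genotypes, Egln1 came to 0.059 with the replicate block, 0.060 with the class, 0.25 in the short-transcript libraries and 0.017 with the slope (-0.33 to 0.54), Egln3 to -0.032 in the short-transcript libraries (-0.11 to 0.37), Hif1a to -0.057 there and -0.018 with the slope (-0.49 to 0.57) and Bnip3 to 0.025 with the slope (-0.95 to 0.39). The values in the fit of all libraries that were farthest from 0 were -0.92 for Ankrd37, -0.49 for Bnip3 and -0.42 for Epas1, and these changed sign without ΔPod 1 (Ankrd37 and Bnip3) or without ΔPod 3, K2A 1 or K2A 2 (Epas1). Without 1 library Epas1 ran from -2.13 to 1.08, Adm from -0.043 to 0.24 and Ankrd37 from -1.41 to 0.34.

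Libraries with the same number deviated together in some pairs and apart in others (correlations of -0.62 to 0.85, below 0 for the pairs of WT 1), so the numbers were not taken as a pairing. Whether a number stands for a shared day or litter was not tested.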
